A study of Gallus gallus with 6 samples.

Results

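The 2322 regions described here are the places on the smallest chicken chromosomes where a peak of the transcription factor TCF21 was called in every one of 3 immunoprecipitations. They are found on the 12 chromosomes of the peak lists numbered 16, 21 to 28, 30, 32 and 33. Peaks of different lists that overlapped by 1 bp or more were joined into regions, and a region was kept when it held a peak of all 3 lists. These regions are 6.21% of the 37420 such regions in the genome, which include those on sex chromosomes and unplaced scaffolds. The span of the 12 chromosomes is 4.78% of that of the numbered chromosomes alone, so these shares are not on the same basis. The numbered chromosomes outside the 12 held 32244 regions. The chromosomes were divided beforehand by their known density into a dense pair (26 and 28, 660 regions) and a sparse group of 4 (16, 22, 25 and 27, 509 regions), so the difference in density between these groups is a description and not a result.

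TCF21 is a basic helix-loop-helix protein that binds E-box DNA as a dimer, and it is known as a marker of mesenchymal and preadipocyte cells. Birds carry many very small chromosomes, called microchromosomes, which are rich in genes and in G and C bases compared with the large ones. Chromosome 16 of the chicken is known for carrying the major histocompatibility complex and the ribosomal RNA genes, repeated sequences that are hard to assemble, and chromosome 25 for arrays of feather keratin genes.

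All samples were adipose-derived chicken preadipocytes, precursors of fat cells, that stably overexpressed TCF21 from a lentiviral construct (LV-TCF21). All were kept for 24 h in differentiation medium with oleic acid at 300 µM, a lipid that induces fat cell differentiation in chicken cells. The 3 TCF21 samples were precipitated with an antibody against the HA tag, and 3 input DNA samples had no antibody. Every sample overexpressed the factor, so the regions describe the introduced protein. The labels do not name the promoter of the construct, nor do they say whether the samples of a group were separate cultures, so each SD below is a spread between samples that may be technical. Peak lists hold no expression, so the cell type could not be checked against its markers.

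Each immunoprecipitation gave 1 peak list, and the lists, called 1, 2 and 3, held 3669, 3451 and 3429 peaks on these chromosomes. The pileup is the number of fragments stacked at a summit, and the fold enrichment is the pileup over the local control level, each with 1 added. Both are values of the authors' peak caller. The input level was recovered as (pileup + 1) / fold enrichment − 1 and is given relative to its mean over all peaks of the list on numbered chromosomes. Regions with a peak of every list averaged 1.08, 1.07 and 1.08 on the numbered chromosomes outside these, so a level of 1 is below the average of such regions. Total read numbers are not in the lists, so depth is unknown. The lists differed in pileup throughout, with medians over the 2322 regions of 23, 21 and 18 fragments in lists 1, 2 and 3, and values are therefore compared within a list. The labels and lists used here do not name the genome build, and no sequence or gene of a matching build was used, so regions are given by position alone.

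TCF21 regions were slightly more frequent on these chromosomes than on the next larger ones as a group, but not than on each of them. The whole set held 52.1 regions per Mb, chromosomes 17 to 20 held 50.1, and the remaining numbered chromosomes, with 17 to 20 among them, held 36.4. Taken singly, chromosomes 17 and 19 held 53.2 and 55.8, above the set, and 18 and 20 held 49.6 and 44.0, below it. In the single lists the set had 82.3, 77.4 and 77.0 peaks per Mb, and chromosomes 17 to 20 had 79.2, 73.99 and 74.96. The ratio was above 1 in 3 of 3 lists, with a mean log2 value of 0.053 ± 0.014 (SD, n = 3; exact two-sided sign-flip permutation test over lists, p = 0.25, adjusted p = 0.55). With 3 lists this exact test cannot go below p = 0.25, so no comparison here can pass 0.05, and p-values were adjusted over 11 tests.

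The regions of the set were also like those of chromosomes 17 to 20 in height. As joined here, with all peaks kept, the median pileup was the same in both sets of chromosomes in every list. With a q-value of at most 1e-05 its log2 ratio was 0.076, and with a reciprocal overlap of 50% it was −0.058. Median fold enrichments were 8.01, 7.57 and 7.35 in the set and 7.87, 7.25 and 7.35 on chromosomes 17 to 20, a log2 ratio of 0.029 ± 0.031. Median peak widths were 479, 451 and 419.5 bp against 459.5, 445 and 428.5 bp, and the lists differed in direction. The relative input level was lower in the set in all 3 lists, at 1.04, 1.02 and 1.06 against 1.07, 1.06 and 1.08, a small difference, larger than its SD over lists (log2 ratio −0.043 ± 0.0055, exact sign-flip permutation p = 0.25, adjusted p = 0.55). It did not hold against each chromosome. Chromosome 18 had a mean level of 0.905, below the 1.04 of the set, chromosome 20 had 1.04, and chromosomes 17 and 19 had 1.16 and 1.17.

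Within the set, density varied from chromosome to chromosome. Chromosomes 28 and 26 held 65.4 and 64.3 regions per Mb (324 and 336 regions), and chromosomes 33 and 24 were close to them with 61.3 and 61.2 (100 and 382 regions). Chromosomes 23 and 21 followed with 54.1 and 51.6 (312 and 351 regions). The sparse group had 38.6 on chromosome 22 (182 regions), 38.4 on 27 (216), 33.7 on 25 (98) and 21.9 on 16 (13). Chromosomes 32 and 30 held 5 and 3 regions on 0.077 and 0.021 Mb, too few for a density to be read. The single lists gave the same picture: chromosome 26 had 110, 95.7 and 98.2 peaks per Mb and chromosome 28 had 98.4, 96.6 and 94.0, while chromosome 27 had 63.6, 60.97 and 56.7 and chromosome 25 had 55.8, 57.1 and 51.0. No list of a chromosome in the sparse group reached the lowest list of 26 or 28. The order of 26 and 28 was not resolved, since it differed between lists.

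**Figure D1:**
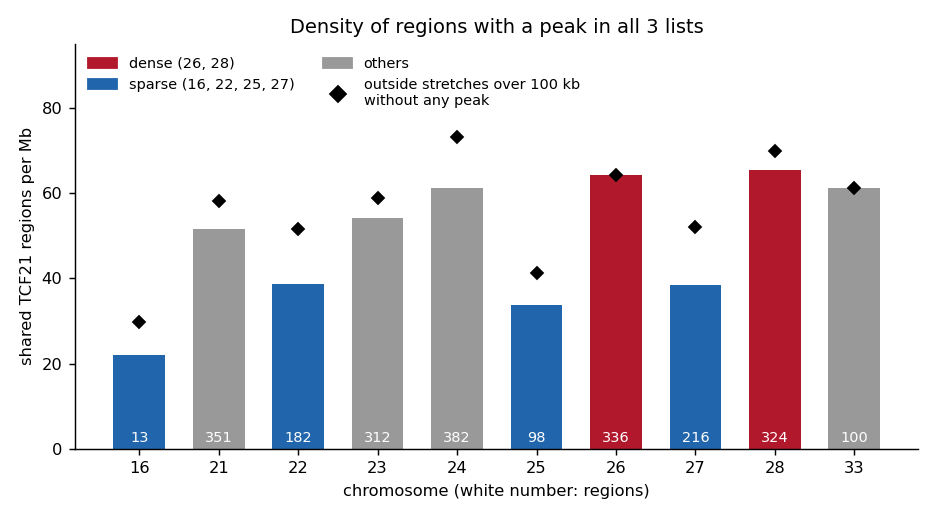
Regions per Mb with a peak in all 3 lists, by chromosome (bars, with the number of regions), and the same density outside stretches of over 100 kb that hold no peak of any list (diamonds); chromosomes 30 and 32 are left out. The bars of chromosomes 22 and 27 stand at 38.6 and 38.4 and their diamonds at 51.6 and 52.0, while chromosome 26 has no such stretch and stays at 64.3.

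Each sparse chromosome had a longer stretch without any peak than either chromosome of the dense pair. Stretches of over 100 kb between neighbouring peaks, without a peak of any list, numbered 28 in the set and took up 5760 kb. Each of chromosomes 22, 25 and 27 had 1 stretch of about the same length, and these are the longest of the set. They run from 3002540 to 3532801 on chromosome 22 (530.3 kb), from 274613 to 801906 on chromosome 25 (527.3 kb), and from 174224 to 705142 on chromosome 27 (530.9 kb). The last is followed on chromosome 27 by stretches of 248.9 and 255.9 kb, and no shared region lay in the first 10% of that chromosome. On chromosome 28 the longest stretch was 109 kb, on 33 it was 90.0 kb and on 26 it was 86.2 kb. Chromosome 16, with the lowest density, had 1 stretch, of 155.8 kb. This was shorter than the longest stretches of chromosomes 21 and 23, 293.0 and 179.7 kb, which are not in the sparse group. Chromosome 24 held 61.2 regions per Mb in spite of a stretch of 411 kb. Unsequenced or repeated parts of the assembly were not located, and their part in these stretches was not tested.

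Leaving these stretches out narrows the difference in density between the groups, by construction more where there are more of them. A start of over 100 kb before the first peak of a chromosome was left out as well. In the set this was the first 174 kb of chromosome 27, a sparse one. The dense pair then had 66.9 regions per Mb and the sparse group 48.5, a ratio of 1.38 in place of 1.76 (64.8 against 36.8). Chromosomes 22 and 27 rose to 51.6 and 52.0 regions per Mb, below chromosomes 21 and 23, which had 58.3 and 58.9 on the same basis, and chromosome 24 reached 73.3, above chromosome 28 with 69.8. Chromosomes 25 and 16 stayed lowest, at 41.2 and 29.7. Across the 9 chromosomes with at least 50 regions, density and the length of the longest peak-free stretch had a Pearson's r of −0.865 and a Spearman's rho of −0.850. This is a description of 9 chromosomes that share their libraries, and the stretch is part of the span that divides the density.

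As joined here, with all peaks of the lists kept, the regions on dense and on sparse chromosomes were of like strength. The median pileup was 22.5, 21 and 18 fragments on the dense pair and 22, 21 and 17 on the sparse group in lists 1, 2 and 3, a log2 ratio of 0.038 ± 0.042 (SD, n = 3; exact two-sided sign-flip permutation p = 0.5, adjusted p = 0.786). The median fold enrichment was 7.83, 7.41 and 7.34 on the dense pair and 7.95, 7.30 and 7.05 on the sparse group (log2 ratio 0.019 ± 0.040, exact permutation p = 0.75, adjusted p = 0.917). It was lower on the dense pair in list 1 and higher in the others. The mean relative input level was 1.04, 1.01 and 1.05 against 1.03, 1.04 and 1.04, with a log2 ratio of −0.0038 ± 0.036 (exact permutation p = 1, adjusted p = 1). None of these differences exceeded the SD between lists, which does not show that the groups are equal. The result depended on the peaks kept. With a q-value of at most 1e-05 the log2 ratio was 0.13 for pileup and 0.086 for fold enrichment. With a reciprocal overlap of 50% the log2 ratios were 0.096 and −0.0023, and with at least 2 of the 3 lists they were 0 and 0.030.

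Peaks were a little wider on the dense pair in each list, at 494, 447 and 417 bp against 455, 443 and 412 bp. The difference was largest in list 1, and the mean log2 ratio over lists was 0.050 ± 0.060 (exact permutation p = 0.25, adjusted p = 0.55). Without list 1 the log2 ratio was −0.012. The members of the pair differed: chromosome 28 had 494, 467.5 and 433 bp and chromosome 26 had 493, 425.5 and 392.5 bp. Chromosome 26 was thus narrower than the sparse group in lists 2 and 3. The joined regions, which take up the peaks of all lists, had median widths of 605 bp on the dense pair and 558 bp on the sparse group, from 478 bp on chromosome 16 to 618.5 bp on chromosome 28 among the chromosomes with at least 10 regions.

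The dense pair was not uniform, and the averages above cover a contrast between its members. Chromosome 28 had a median pileup of 27, 25 and 21 fragments in lists 1, 2 and 3, and chromosome 26 had 20, 18 and 16. Chromosome 28 was thus 1.35 times as high (log2 ratio 0.43 ± 0.041, higher in 3 of 3 lists). The input level moved the same way, with 1.17, 1.13 and 1.17 on chromosome 28 and 0.916, 0.892 and 0.938 on chromosome 26, a ratio of 1.26 (log2 ratio 0.34 ± 0.016). The fold enrichment, which divides the pileup by the input level, was 8.23, 8.26 and 7.57 on chromosome 28 and 7.63, 6.70 and 7.07 on chromosome 26, a log2 ratio of 0.17 ± 0.11. This pair was set side by side after its values were seen, so no test is given. The sparse group as a whole lay between them, with chromosome 28 at 1.22 times and chromosome 26 at 0.902 times its median pileup. It was not uniform either. Chromosome 22 had median pileups of 20, 19 and 16 fragments and chromosome 16 had 17, 21 and 12. Chromosome 25 had 23, 21 and 18, and chromosome 27 had 25, 23.5 and 17.5.

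Among the 10 chromosomes with at least 10 regions, a set of lower and a set of higher input level crossed the division by density. Chromosomes 22, 16, 21 and 26 had mean relative levels of 0.903 ± 0.015, 0.906 ± 0.043, 0.913 ± 0.031 and 0.915 ± 0.023 (SD, n = 3). Chromosomes 33, 25, 23, 24, 27 and 28 had 1.07 ± 0.065, 1.07 ± 0.038, 1.10 ± 0.011, 1.11 ± 0.0051, 1.14 ± 0.018 and 1.16 ± 0.028. No list of the second set fell below any list of the first. Each set thus held a dense chromosome and sparse ones. The input level has a floor, its lowest value in a list. This floor was reached in at least 1 list by 178 of the 2322 regions (7.67%). The share was 11.7% over all regions of the genome, which include those on sex chromosomes and unplaced scaffolds. On the numbered chromosomes outside the set it was 7.19%, and on chromosomes 17 to 20 it was 6.60%. Chromosomes 17 to 20 also differed among themselves, with 16.3% on 18 and 2.40%, 1.62% and 6.45% on 17, 19 and 20. This share was 23.1% on chromosome 16 (3 of 13 regions), 15.2% on chromosome 26, 12.8% on 21 and 10.99% on 22, and between 1.85% and 7.69% on chromosomes 23, 24, 25, 27, 28 and 33.

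**Figure D2:**
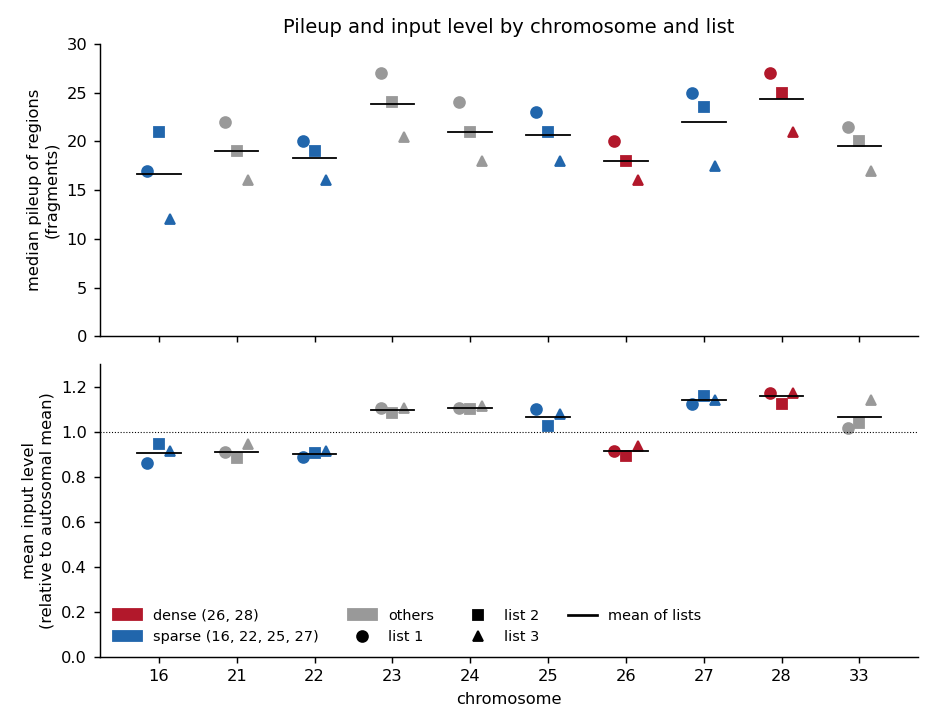
Median pileup of shared regions in fragments (top) and mean input level at their summits relative to the autosomal mean (bottom), by chromosome, with 1 point per list and a bar at the mean of the lists. Chromosome 28 stands at a mean pileup of 24.3 and an input level of 1.16, and the equally dense chromosome 26 at 18 and 0.915. The dotted line at 1 is the mean over all peaks of a list on numbered chromosomes, shared or not.

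Pileup followed the input level from chromosome to chromosome more closely than it followed density. Over the 9 chromosomes with at least 50 regions, the median pileup and the input level had an r of 0.855 and a rho of 0.900, and the median pileup and density had 0.128 and 0.083. For fold enrichment and density the values were 0.048 and 0.017, and for fold enrichment and input level they were 0.505 and 0.450. Pileup and input level are both read at summits of called peaks. A peak is called by its pileup over the local control level, so the measures are not independent. The part of the calling in these correlations was not tested. These are descriptions of 9 chromosomes measured in the same libraries. Chromosome 23 had the highest fold enrichment of these chromosomes in lists 1 and 3, with medians of 8.80, 8.08 and 8.23, and chromosome 28 had the highest in list 2 with 8.26.

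The share of joined regions that held a peak of every list was 48.5% in the set (2322 of 4790), near the 46.5% of the whole genome. It was 55.2% on chromosome 33, 52.2% on 24, 51.1% on 28, 50.5% on 23 and 49.2% on 21. It was lower on 26 (45.7%), 27 (44.9%), 16 (44.8%), 22 (44.0%) and 25 (41.2%). The dense chromosome 26 thus stood with the sparse group in this measure. It also had the most regions of a single list per Mb among the chromosomes with at least 10 shared regions, 50.9, against 40.8 on chromosome 28 and 31.99 on chromosome 27. Of its peaks, 575 were in list 1, 500 in list 2 and 513 in list 3.

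**Figure D3:**
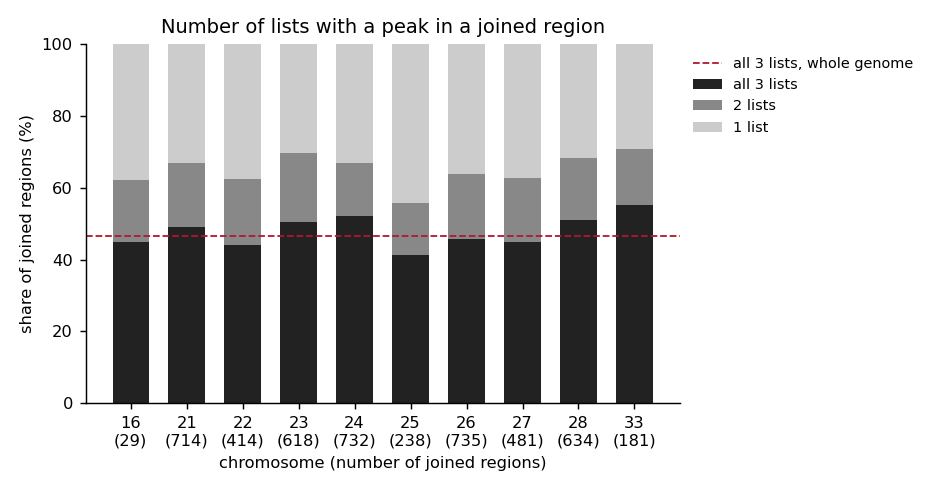
Share of joined regions, in percent, with a peak in all 3 lists, in 2 lists or in 1 list, by chromosome; the dashed line marks the share with all 3 lists in the whole genome (46.5%). Chromosome 33 reaches 55.2% and chromosome 25 has the lowest share of the 10 chromosomes drawn, 41.2%.

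Strong regions were counted as those whose fold enrichment reached 10 in all lists. There were 593 in the set (25.5%, against 23.5% of all regions of the genome), so the share was near the background. They were 25.8% of the regions of the dense pair and 24.0% of those of the sparse group, and thus 16.7 and 8.82 per Mb. Values per Mb are tied to the density that set the groups apart and are a description. Chromosome 28 held 17.95 strong regions per Mb, chromosomes 24, 26 and 23 held 15.5, 15.5 and 15.3, and chromosome 25 held 8.26. Pileups of at least 100 fragments in every list were found at 80 regions, 3.45% of the set. The share over the whole genome is not given here, so this count is a description. Of the 80, 18 were on chromosome 23, 14 each on chromosomes 24 and 28, 11 on 27, 8 on 26, 6 on 21, 4 on 22, 3 on 25 and 2 on 33. Chromosomes 23, 28, 24 and 27 held the most per Mb, 3.12, 2.82, 2.24 and 1.96. The share of such regions was 3.33% on the dense pair and 3.54% on the sparse group.

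Regions lay closer together on the dense pair at the median gap and above it. The median gap from a region to the next was 6.46 kb on the dense pair and 8.82 kb on the sparse group. The 75th percentile was 17.8 and 25.2 kb, and the 90th was 36.4 and 53.3 kb. Among the short gaps the order was mixed, with a 25th percentile of 2.32 kb on the dense pair and 2.06 kb on the sparse group, and a 10th percentile of 0.529 and 0.773 kb. Single chromosomes of the groups were close: the median gap was 6.93 kb on 26 and 7.50 kb on 27, where the densities were 64.3 and 38.4 regions per Mb. The shortest median among the chromosomes with at least 10 regions was 4.42 kb on chromosome 33, and the longest was 13.02 kb on chromosome 25. Between the peaks of single lists the median spacing was 4.61, 4.95 and 5.55 kb on the dense pair and 5.77, 6.22 and 6.55 kb on the sparse group, shorter in 3 of 3 lists. Spacing is tied to the density that set the groups apart, so this is a description.

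**Figure D4:**
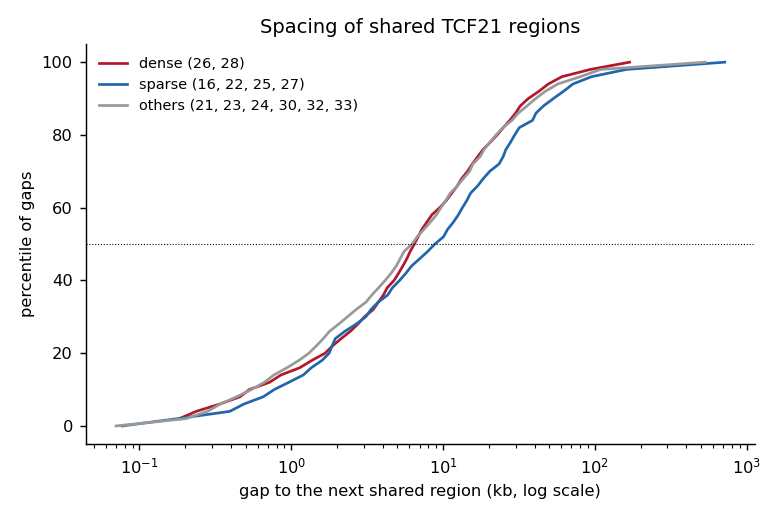
Percentiles of the gap from each shared region to the next on the same chromosome, in kb on a log axis, for dense, sparse and other chromosomes of the set. The dense and sparse curves cross between about 1.9 and 3.7 kb and lie apart above that, with medians of 6.46 kb (dense), 8.82 kb (sparse) and 6.24 kb (others).

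Clusters were defined as at least 5 regions with gaps of at most 10 kb. The set held 123 clusters with 909 regions, or 39.1% of its regions, against 28.7% of all regions of the genome and 39.7% on chromosomes 17 to 20. A cluster took in 40.2% of the regions of the dense pair and 28.5% of those of the sparse group. Clusters are built from short gaps, so this difference is tied to the density that set the groups apart and is a description. With gaps of at most 5 kb this difference of 11.7 percentage points shrank to 3.75, and without list 1 it was 7.35. Chromosome 33 had the highest share, 55.0%, followed by 24 with 47.1% and 28 with 45.1%. Chromosome 26 had 35.4%, next to chromosome 27 with 34.7%, and chromosome 16 had no cluster.

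The largest cluster, with 22 regions on 93.1 kb, lay on chromosome 28 at 2941859 to 3034959 and held 31, 32 and 29 peaks in lists 1, 2 and 3. Its highest region, at 3000187 to 3001065, had pileups of 121, 105 and 85 fragments. A pair of clusters had 20 regions each. That on chromosome 23, at 3494078 to 3535488, was packed into 41.4 kb and reached 167, 154 and 127 fragments at its highest region. That on chromosome 33, at 1344412 to 1412756, spread over 68.3 kb and reached only 91, 88 and 45 fragments. A second cluster on chromosome 28, at 165649 to 223078, held 19 regions and the highest summit of the 5 largest clusters, with 189, 173 and 178 fragments at 187388 to 188498. The fifth, on chromosome 24 at 1163853 to 1216512, held 17 regions, none above a mean of 82.3 fragments. All 5 mixed high and low regions, with lowest mean pileups between 7.33 and 13.7 fragments.

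Regions in clusters were higher than the others in every list. Their median pileup was 27, 24 and 20 fragments, against 21, 19 and 16 for the 1413 regions outside clusters, a log2 ratio of 0.34 ± 0.021 (SD, n = 3) that exceeded the spread between lists. The relative input level was higher in clusters as well, at 1.11, 1.10 and 1.13 against 0.989, 0.970 and 1.01, and its part in the difference was not tested. The fold enrichment, taken over that input, had a log2 ratio of 0.14 ± 0.030, and the peak width one of 0.16 ± 0.0018. The log2 ratio of pileup was 0.44 ± 0.082 on the dense pair and 0.20 ± 0.046 on the sparse group. Strong regions made up 31.3% of the clustered and 22.03% of the other regions on the dense pair, and 24.8% and 23.6% on the sparse group. On the remaining chromosomes of the set the order was the other way, 24.6% and 27.2%, and over the whole set the shares were 26.6% and 24.8%. The log2 ratio of pileup on the remaining chromosomes was 0.30 ± 0.052. The difference between the groups in this respect was not tested.

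The 10 regions with the highest mean pileup lay on 7 chromosomes, with 22, 25 and 27 of the sparse group among them. The highest, at chromosome 24, 1267032 to 1267931, had pileups of 279, 272 and 246 fragments in lists 1, 2 and 3 (266 ± 17.4, SD, n = 3). Next came a region on chromosome 25, at 1704415 to 1705535, with 273, 252 and 245, and another on chromosome 24, at 3882664 to 3884622, with 267, 251 and 244. Chromosome 27 held the fourth, at 4437114 to 4438347, with 256, 253 and 231 fragments. The sparsest of the longer chromosomes, 25, thus carried a region about as high as any of the set, and it stood alone, with no other shared region within 10 kb.

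The fifth region, at chromosome 26, 785052 to 786244, had 247, 240 and 217 fragments, and the sixth, at chromosome 28, 4449136 to 4451566, had 235, 220 and 211. Chromosome 23 held the seventh, at 2685135 to 2686222, and the eighth, at 1126004 to 1127120, with means of 215 ± 9.54 and 211 ± 19.7. The ninth, at chromosome 22, 2661633 to 2663410, had 231, 216 and 182 fragments, and the tenth, at chromosome 24, 2497639 to 2500102, had 211, 214 and 181. Neighbours in this order differed by more than the spread between lists, and in the same direction in 3 of 3 lists, only from the fourth to the fifth (12 ± 2.65 fragments) and from the fifth to the sixth (12.7 ± 7.02). Of the 10 highest regions of a list by pileup, 9 were the same in all 3 lists.

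The order by fold enrichment was less stable, and the input level under the same summits varied between lists. Only 2 of the 10 highest regions by fold enrichment were the same in all 3 lists. At the region on chromosome 25 the fold enrichment was 35.5, 124 and 98.1, and its recovered input level was 6.72, 1.03 and 1.51 fragments, while the summits lay within 4 bp. This region ranked 100 in list 1 and 1 in lists 2 and 3 by fold enrichment, and its mean of 86.0 ± 45.7 was 111 without list 1. The region on chromosome 26 behaved alike, with 41.0, 115 and 66.8 at input levels of 5.04, 1.10 and 2.26 fragments. List 2 was the low one at the highest region of chromosome 24, with 64.2, 28.6 and 61.5. The region on chromosome 28 was even, with 65.8, 72.9 and 65.01, as was the highest region of chromosome 21, at 3022526 to 3023497, with 51.2, 52.8 and 45.7. The 5 highest mean fold enrichments were on chromosomes 25, 26, 27, 24 and 22, and ran from 86.0 to 68.5.

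**Figure D5:**
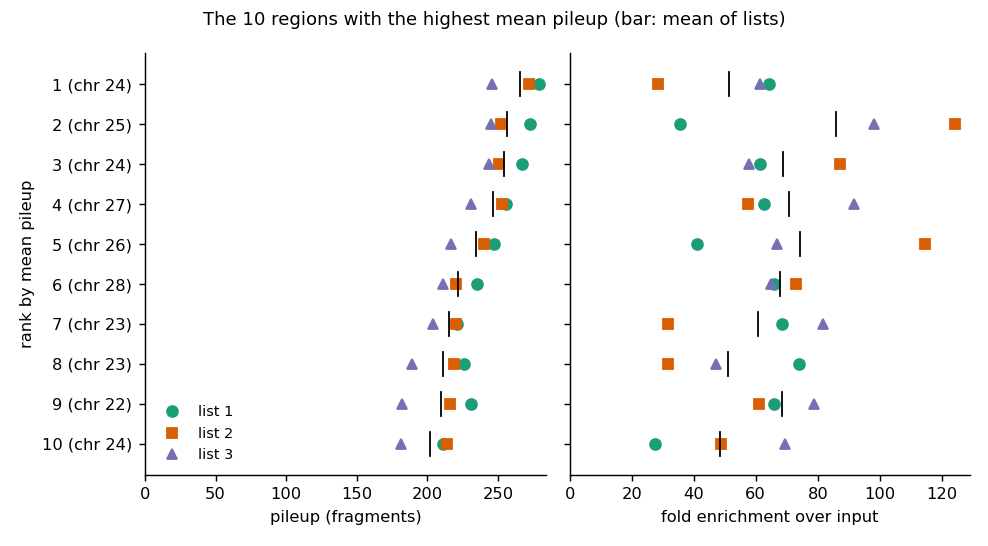
Pileup in fragments (left) and fold enrichment over input (right) of the 10 regions with the highest mean pileup, with 1 point per list and a bar at the mean; rows give the rank and the chromosome. Pileups of a region stay within 49 fragments of each other, while fold enrichments of the second region, on chromosome 25, run from 35.5 to 124.

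Across all 2322 regions Spearman's rho between a pair of lists was 0.900 ± 0.0043 for pileup (SD over 3 pairs), 0.792 ± 0.0065 for fold enrichment and 0.315 ± 0.0066 for input level. These values describe regions of the same libraries. The dense pair and the sparse group had pileup values of 0.904 and 0.884. The summits of a pair of lists lay a median of 26 bp apart, and 88.9 ± 0.610% lay within 100 bp.

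The 3 widest regions ranked 548, 37 and 450 by mean pileup among the 2322, and so were not the highest ones. The 10 regions with the highest mean pileup were 900 to 2464 bp wide, all above the 75th percentile of the set, 825 bp. The first by width measured 3190 bp, at chromosome 23, 5430303 to 5433492, with 5 peaks and pileups of only 33, 46 and 42 fragments. The next measured 3153 bp, at chromosome 23, 3514561 to 3517713, with 6 peaks and 153, 146 and 119 fragments. It belongs to the cluster of 20 regions on that chromosome. The third measured 2889 bp, at chromosome 26, 1775589 to 1778477, with 59, 41 and 41 fragments, and its strongest summits lay 1241 bp apart between lists, so different lists placed their strongest peak in different parts of it. More than 1 peak of a list was found in 190 regions of the set (8.18%). The share was 6.27% of all regions of the genome and 8.90% on chromosomes 17 to 20. Within the set it was 9.09% on the dense pair and 5.70% on the sparse group.

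A high background lay under a few regions. The highest region of chromosome 24 had the highest mean relative input level of the set, 2.51 ± 1.39, from 1.55 in list 1 to 4.11 in list 2. The region at chromosome 28, 1595578 to 1596025, had 3.49, 2.46 and 1.29 times the autosomal mean with pileups of only 30, 15 and 18 fragments, so its fold enrichments were 3.62, 2.62 and 6.21. At chromosome 23, 1321295 to 1323154, the levels were 2.71, 2.87 and 1.41, and the pileups of 174, 164 and 148 fragments were still 25.4, 23.7 and 45.7 times the background. At each of these 3 regions the ratio of the highest to the lowest list was larger for the input level than for the pileup.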

How the data were processed

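TCF21 binding was measured by ChIP-seq in 3 immunoprecipitations with 3 input DNA samples. Trimmomatic 0.36, STAR 2.5.3a, HOMER, bedtools and MACS2 are listed in the submitters' processing notes, with no role for any. Neither the genome build nor the calling threshold or control library is given in these sources. The lists have MACS2 columns, per the file headers. The deposited pileup is a signal in fragments, 100% whole numbers. The deposited fold enrichment is a ratio to the local control level. Significance is deposited as −log10 of the p-value and q-value, and widths and positions in bp, counted from 1. The smallest −log10 p was 2.00. On the chromosomes of the set, 95.3%, 94.3% and 91.6% of the peaks of lists 1, 2 and 3 had a q-value of at most 0.05. Lists come from single samples, not pools, and were treated as unnumbered samples of the immunoprecipitation group because their numbers were not matched to replicates.

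From these, with Python 3.11.15, pandas 2.3.3, numpy 2.4.6 and scipy 1.17.1, peaks were joined into regions. The strongest peak by fold enrichment stood for a list. With the input level as its mean, a Poisson law gave the deposited −log10 p for 99.9% of each list's peaks, with a tolerance of 1% plus 0.01. Span was the end of the last peak. Per-list log2 ratios were tested by sign flips over the 3 lists, Benjamini-Hochberg adjusted over 11 tests. The planned spacing test of dense against sparse chromosomes is counted among them, and its p is not read as evidence. Named regions were the highest pileup of each chromosome, the 10 highest pileups, 5 highest fold enrichments, 3 widest, 3 highest input levels and 5 largest clusters. Joining was tested on simulated data, where 1098 of 1098 planted regions were found. The planted regions lay far apart and their shared peaks always overlapped, so close neighbours and partly overlapping peaks were not tried. The chromosomes, groups and measures were chosen with earlier results of these data known. Depth is unknown, so no counting interval was computed, and the smallest pileups of 3 or 4 fragments make weak peaks coarse.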

Additional observations from a re-analysis of the deposited data

How the results depend on the processing

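The density outside peak-free stretches, the density, spacing and clusters without chromosome 16, and the windows, highest-pileup peaks, floor and median input for the set over chromosomes 17 to 20 were chosen as alternatives after the data were seen. The 2322 regions became 1503 with a q-value of at most 1e-05, where fewer peaks enter, and 2544 to 2680 without each list. The density ratio of dense over sparse chromosomes, 1.76, was 1.49 over windows of 100 kb with a peak, 1.38 outside peak-free stretches, both of which shorten the sparse spans, and 1.71 to 1.78 without each list. That of the set over chromosomes 17 to 20, 1.04, was 1.05 over windows, 1.07 outside peak-free stretches, 1.05 with a reciprocal overlap of 50%, and 1.03 to 1.05 without each list. The ratio of median gaps, 0.733, was 0.665 with a reciprocal overlap of 50%, 0.822 with at least 2 of the 3 lists, and 0.765 to 0.816 without each list. The share in clusters, 11.7 percentage points higher on the dense pair, was 14.6 with the q-value limit, 15.6 with at least 2 lists, 3.75 and 16.6 with gaps of at most 5 and 20 kb, and 7.35 to 16.2 without each list. Some of the differences changed sign: for dense over sparse chromosomes the log2 ratio of fold enrichment was −0.0023 with a reciprocal overlap of 50% and −0.00087 to 0.055 without each list, that of width −0.012 to 0.049 without each list, and that of input level 0.017 without regions at the floor, 0.046 by medians and −0.022 to 0.0084 without each list. The log2 ratio of peak spacing of the set over chromosomes 17 to 20, −0.018, was 0.025 with the q-value limit. Without a change of sign, the log2 ratio of pileup of dense over sparse chromosomes, 0.038, was 0.13 with the q-value limit. It was 0.096 with a reciprocal overlap of 50% and 0 to 0.037 without each list. For the set over chromosomes 17 to 20 the log2 ratio of pileup was 0 as joined here and 0.076 with the q-value limit. It was −0.058 with a reciprocal overlap of 50% and −0.035 to 0 without each list. Where no construction is named, the cause was not tested.

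No paired analysis was possible because input samples have no values of their own in the lists, and list numbers could not be tied to replicates.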

Other observations

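The shortest chromosomes carried few regions, but not only weak ones. All 3 regions of chromosome 30 lay within 0.021 Mb, and the last of them, at 20545 to 21128, had pileups of 36, 52 and 35 fragments and fold enrichments of 16.8, 27.5 and 19.1. The other two had mean pileups of 7.67 and 10.0. On chromosome 32 the region at 20173 to 21139 had 101, 110 and 80 fragments, while the remaining 4 had means between 9.33 and 17.3. The 13 regions of chromosome 16 had mean pileups from 8.67 to 51.3 fragments, with the highest at 209420 to 210011 (53, 52 and 49 fragments and fold enrichments of 21.2, 19.6 and 19.9). They fell into 2 stretches of that chromosome, 10 of them up to 210011 and 3 from 415981 on. On chromosome 33, where clusters took in the largest share of regions among the chromosomes of the set, density was uneven, with between 1 and 25 regions in 10 equal parts of the chromosome. Its highest region, at 400360 to 401581, had 174, 157 and 131 fragments. The other chromosomes with at least 50 regions were uneven as well. Such parts held 0 to 16 regions on 25, 0 to 41 on 27, 2 to 40 on 22 and 7 to 58 on 21. They held 7 to 57 on 24, 13 to 48 on 23, 14 to 52 on 28 and 21 to 55 on 26.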
